A study of Danio rerio with 2 samples.

Results

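Compact strongly open peaks of the retinal pigment epithelium (RPE) of the zebrafish embryo were examined: peaks on chromosomes 1 to 25 that were at most 400 bp wide and had at least 10 CPM in each of 2 RPE libraries. CPM is the count of a peak per 1000000 counts in all peaks of its library. The peaks were thus chosen by their width and by the levels measured in these same libraries. Of 238369 listed peaks, 233815 lay on these chromosomes and 2439 met the rule. The libraries, RPE replicate 1 and RPE replicate 2, were made by ATAC-seq, a method that inserts sequencing adapters into accessible DNA with a transposase. Both came from embryos with the transgene tg(Enh-1_bHLHe40:GFP) at 23 hours post fertilization (hpf), from which GFP+ cells were sorted. The enhancer of the transgene marks RPE precursors. The study notes reports of its activity in the ciliary marginal zone and in periocular neural crest, but only once the optic cup has folded. It therefore expects at most minor contamination at 23 hpf. Its methods state that these cells were sorted from whole embryos. Its reporting summary gives only a lower bound for the purity of the sort, which leaves room for other cells. Each library pools cells of many embryos. Libraries of the neural retina (NR), against which the study set the RPE, were not analysed here. The peaks carry no gene names in the deposited counts, so the identity of the cells was not checked against marker genes.

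The RPE covers the neural retina from outside. It arises from the same progenitors and later becomes a pigmented epithelium that serves the photoreceptors. Promoters and enhancers bound by transcription factors lose nucleosomes and can be cut by the transposase, and clusters of such elements often surround genes that control development. A narrow peak corresponds to a short stretch of open DNA, whereas a broad peak can span several neighbouring factor-bound sites. In bulk libraries, a site open in more cells and a site cut more often in each cell cannot be told apart.

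The total count in peaks was 23996755 in replicate 1 and 19653966 in replicate 2, so that 10 CPM stood for at least 240 and 197 counts. Compact strongly open peaks held 240 to 1045 counts in replicate 1 (median 332) and 197 to 713 counts in replicate 2 (median 256). None of them was therefore near the limit of detection. Counts of reads are not independent molecules, and the intervals given here cover counting error only.

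Both criteria pulled against each other, since narrow peaks seldom hold many counts. No peak of 100 to 199 bp met the rule. It was met by 15 of 31717 peaks of 200 to 249 bp, by 111 of 30159 peaks of 250 to 299 bp, by 642 of 24947 peaks of 300 to 349 bp (2.57%) and by 1671 of 18611 peaks of 350 to 400 bp (8.98%). The compact strongly open peaks were accordingly 210 to 400 bp wide (median 367 bp) and lay mostly just under the width limit. They made up 1.34% of the 182612 compact peaks on these chromosomes. The remaining 180173, called other compact peaks here, were under 10 CPM in at least 1 library and had a median width of 223 bp.

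**Figure D1:**
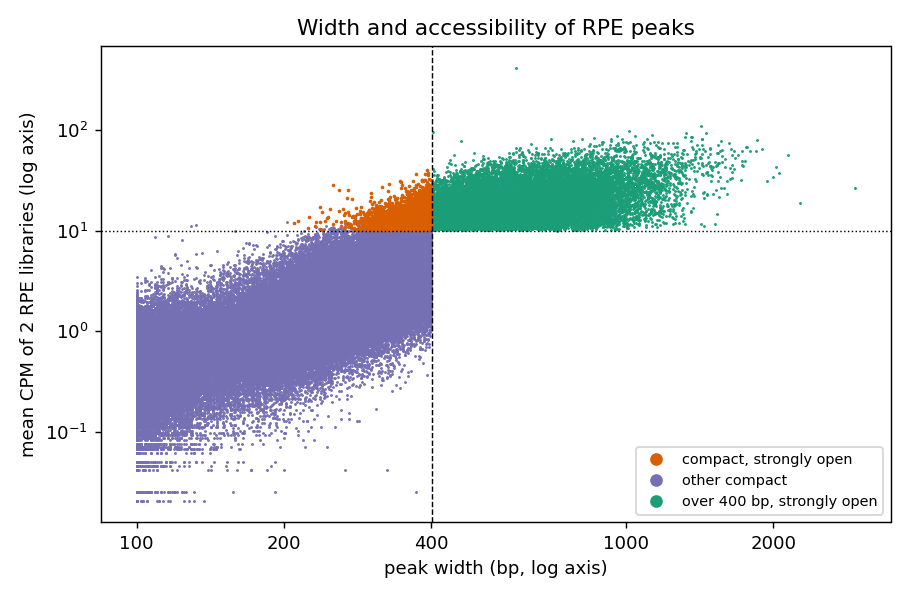
Width (bp, log axis) and mean CPM of the 2 RPE libraries (log axis) of peaks on chromosomes 1 to 25, with 1 point a peak; peaks with no count cannot be drawn. Compact strongly open peaks (orange, 2439) fill the corner between 210 and 400 bp above 10 CPM, between the 180173 other compact peaks (violet) and the 19623 strongly open peaks over 400 bp (green).

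The levels of compact strongly open peaks covered a narrow range. The mean of both libraries had a median of 13.4 CPM, with quartiles of 11.9 and 15.9 CPM and a maximum of 39.8 CPM. Other compact peaks had a median of 1.296 CPM, and the 19623 peaks over 400 bp at 10 CPM or more in each library, called wide strongly open peaks, had 17.7 CPM. Per 100 bp of width, the median was 3.78 CPM in compact strongly open peaks, 0.604 CPM in other compact peaks and 2.97 CPM in wide strongly open peaks. These values chose the peaks and are given as a description. Together, compact strongly open peaks held 3.54% ± 0.147 of all counts (SD, n = 2). The share was 3.64% in replicate 1, with an exact binomial 95% interval of 3.636 to 3.651%. In replicate 2 it was 3.44%, with bounds of 3.427 and 3.444%. They were 1.04% of the peaks on these chromosomes and covered 1.26% of the peak length.

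Near the threshold the choice is arbitrary. Just inside, the peaks at chromosome 12, 8712844 to 8713198, at chromosome 14, 46571212 to 46571588, and at chromosome 20, 3979684 to 3980043, all had 240 counts in replicate 1, the fewest that the rule admits. They had 11.3, 10.2 and 10.5 CPM in replicate 2. Just outside, the peaks at chromosome 1, 46064281 to 46064643 and 50273642 to 50273882, and at chromosome 10, 25694399 to 25694739, all had 196 counts and 9.97 CPM in replicate 2, although in replicate 1 they had 14.4, 10.8 and 13.5 CPM. All coordinates are those of the danRer10 assembly, with the first base numbered 1.

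The 8 highest compact strongly open peaks lay on 7 chromosomes and reached 32.0 to 39.8 CPM. The highest, at chromosome 11, 18544403 to 18544794, had 43.5 CPM in replicate 1 and 36.0 CPM in replicate 2 (39.8 CPM ± 5.36, SD, n = 2). It was not alone: 7 other peaks lay within 10 kb, the nearest at a gap of 383 bp with 31.2 CPM, and the highest of them had 56.3 CPM. The peak at chromosome 13, 33696363 to 33696756, had 40.8 and 33.3 CPM and overlapped the locus of cfl1l, a gene of the cofilin family of actin-binding proteins. It was higher than each of its 7 neighbours within 10 kb, of which the highest had 19.98 CPM. The peak at chromosome 12, 34615708 to 34616079, had 39.4 and 34.3 CPM, overlapped the locus of bahcc1, and stood 415 bp from a peak of 444 bp with 56.5 CPM.

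The other 5 of these 8 differed little between the libraries. On chromosome 11, 40416766 to 40417154, the level was 37.7 and 35.1 CPM. On chromosome 8, 7300814 to 7301207, it was 35.5 and 36.3 CPM. On chromosome 6, 36575863 to 36576258, it was 34.8 and 30.3 CPM. None of the 5 passed the test between the libraries described below. The peak at chromosome 7, 33413437 to 33413836, had 32.17 and 32.16 CPM, the closest match of the 8, and that of chromosome 19, 20614703 to 20615091, had 31.0 and 33.0 CPM. All 8 had between 6 and 10 other peaks within 10 kb, and 5 of them had a higher peak there.

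Counts per base singled out narrower peaks as well. The densest, at chromosome 10, 16840525 to 16840776, was 252 bp wide with 11.2 CPM per 100 bp. It had 22.1 CPM in replicate 1 and 34.2 CPM in replicate 2, and this log2 ratio of -0.63 passed the exact binomial test between the libraries (adjusted p = 9.16e-11). On chromosome 20, the peak at 55337928 to 55338186 was 259 bp wide with 9.73 CPM per 100 bp, at 24.2 and 26.3 CPM, and its nearest neighbour was 28 bp away. The other 3 of the 5 densest peaks were the highest peaks on chromosomes 11, 12 and 13 given above, with 9.40 to 10.1 CPM per 100 bp.

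To set these peaks against the surrounding chromatin, the gap to the nearest listed peak on either side was measured between edges. Position and neighbours were not used by the rule. The gap had a median of 434 bp in compact strongly open peaks (quartiles 185 and 1208 bp) and 1423 bp in other compact peaks (305 and 3110 bp). A gap of at most 500 bp was found for 1314 of 2439 compact strongly open peaks (53.9%) and for 57584 of 180173 other compact peaks (32.0%). Conversely, a gap over 5 kb was found for 33 (1.35%) and 24246 (13.5%). The median gap was lower in compact strongly open peaks than in other compact peaks on each of the 25 chromosomes, at 298 to 646 bp against 1281 to 1538 bp, and these ranges did not overlap. Peaks are not replicates and both libraries are of 1 group, so no p-value is attached to positions. The count of chromosomes that share a direction is given as a description. Chromosomes share the libraries and the peak list, so they are not replicates either.

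The form of the gaps differed too. Very short gaps of at most 50 bp were less frequent in compact strongly open peaks, with 129 (5.29%), than in other compact peaks, with 17382 (9.65%), but their share was close to that in compact peaks of at least 5 CPM in each library below the minimum (5.46%) and in wide strongly open peaks (6.44%). Gaps over 100 bp and up to 200, over 200 and up to 300, and over 300 and up to 500 bp held 13.9%, 11.9% and 15.3% of compact strongly open peaks, and 6.21%, 5.03% and 7.14% of other compact peaks. A neighbour within 500 bp on 1 side only was found for 46.5% of compact strongly open peaks and on both sides for 7.42%, against 28.7% and 3.25% of other compact peaks. In compact peaks of at least 5 CPM below the minimum these shares were 37.1% and 5.26%. In wide strongly open peaks they were 31.1% and 3.67%. In every group, most peaks with a close neighbour thus had it on a single side. How far closely spaced peaks are parts of 1 open region that the peak caller divided was not tested.

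**Figure D2:**
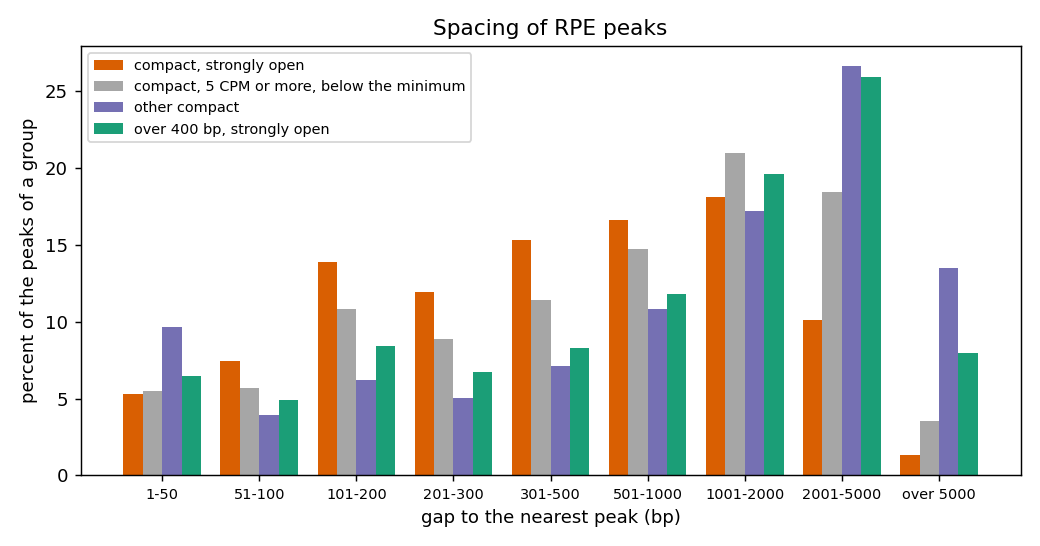
Percent of the peaks of each group (y axis) by gap to the nearest peak in bp (x axis). Compact strongly open peaks (orange) exceed the other groups in every bin from 51 to 1000 bp and fall to 1.35% above 5000 bp; the compact peaks at 5 CPM or more in each library but under 10 CPM in at least 1 (grey) are also part of the other compact peaks (violet), and strongly open peaks over 400 bp are green.

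Level and width were then held closer. Among compact peaks with at least 5 CPM in each library that still missed the minimum (10915 peaks, median 6.98 CPM), the median gap was 720 bp, and 42.3% had a neighbour within 500 bp. Compact strongly open peaks had a lower median gap than these on 25 of 25 chromosomes. Along the lowest CPM of a compact peak, the median gap was 1644 bp under 1 CPM, 1185 bp from 2 to under 5 CPM, 565.5 bp from 8 to under 10 CPM, 445 bp from 10 to under 12 CPM, 463.5 bp from 12 to under 15 CPM and 381 bp from 20 CPM. Gaps were thus shorter at higher levels on both sides of the minimum of 10 CPM. Within classes of equal width the difference was as large. At over 374 and up to 400 bp, the median gap was 488 bp in compact strongly open peaks and 1624 bp in other compact peaks, and between 300 and 349 bp it was 396.5 and 1417 bp.

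Wide strongly open peaks passed the same CPM minimum and were spaced farther apart. Their median gap was 1188 bp, longer than the 434 bp of compact strongly open peaks on all 25 chromosomes. With mean CPM from 10 to under 15, the median gap was 454 bp in 1641 compact and 1408 bp in 6832 wide strongly open peaks. From 20 to under 40 CPM it was 369 bp in 217 compact and 1016 bp in 6759 wide peaks. Within the wide peaks it rose with width, with medians of 697 bp under 500 bp, 1252 bp at 500 to 699 bp and 1948 bp at 1000 bp or more.

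The surroundings of compact strongly open peaks were dense. They had a mean of 6.14 other peaks within 10 kb, against 4.16 for other compact peaks, 5.56 for compact peaks of at least 5 CPM below the minimum and 4.86 for wide strongly open peaks. The mean was above that of each of these groups on all 25 chromosomes. At least 10 neighbours within 10 kb were found for 253 compact strongly open peaks (10.4%) and 3509 other compact peaks (1.95%). For compact peaks of at least 5 CPM below the minimum the share was 6.78%, and for wide strongly open peaks 2.96%. Only 6 compact strongly open peaks had no neighbour there. Over 50 kb the means were 25.9 other peaks for compact strongly open and 20.5 for other compact peaks. The means of compact peaks of at least 5 CPM below the minimum (24.8) and of wide strongly open peaks (24.3) were close to the former.

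Levels around them were higher than around the groups they were compared with. The peak nearest to a compact strongly open peak had a median of 7.38 CPM, and the peak nearest to 1 of the other compact peaks had a median of 1.70 CPM. It was 4.58 CPM for compact peaks of at least 5 CPM below the minimum and 4.05 CPM for wide strongly open peaks. These levels come from the libraries that the rule used, at other positions. The mean CPM of all other peaks within 10 kb summed to a median of 47.8 CPM around compact strongly open peaks, 31.9 CPM around compact peaks of at least 5 CPM below the minimum, 24.7 CPM around wide strongly open peaks and 10.4 CPM around other compact peaks. At least 1 other peak with 10 CPM or more in each library lay within 10 kb of 1876 compact strongly open peaks (76.9%), of 6814 compact peaks of at least 5 CPM below the minimum (62.4%), of 10397 wide strongly open peaks (53.0%) and of 50775 other compact peaks (28.2%). On each of the 25 chromosomes the share was higher for compact strongly open peaks than for each of these groups, and compact peaks near in level came closest. Another compact strongly open peak lay within 10 kb of 682 of them (28.0%), whereas 1761 compact peaks of at least 5 CPM below the minimum (16.1%), 2601 wide strongly open peaks (13.3%) and 8086 other compact peaks (4.49%) had one within this distance.

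Set against wide ones, compact strongly open peaks were seldom the highest peak of their surroundings. Within 10 kb, 791 compact strongly open peaks (32.4%) were higher than every other peak, those without a neighbour included. This held for 13839 wide strongly open peaks (70.5%) and 28081 other compact peaks (15.6%). Among compact peaks of at least 5 CPM below the minimum it held for 2579 (23.6%). These shares set a peak's own level, which the rule used, against its neighbours, so they are a description. The share of compact strongly open peaks was below that of wide strongly open peaks on all 25 chromosomes. With mean CPM from 10 to under 15 the shares were 31.1% in compact and 60.8% in wide strongly open peaks. The nearest peak was the higher of the pair for 699 compact strongly open peaks (28.7%) and for 1751 wide strongly open peaks (8.92%). This held for 3940 compact peaks of at least 5 CPM below the minimum (36.1%) and for 108178 of 180173 other compact peaks. The nearest peak was over 400 bp wide for 886 compact strongly open peaks (36.3%) and 37030 other compact peaks (20.6%). In compact peaks of at least 5 CPM below the minimum this share was 31.6%, and in wide strongly open peaks 26.9%.

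The narrowest of them had more peaks and higher peaks around them, but not shorter gaps. The 126 compact strongly open peaks of 210 to 299 bp had a mean of 7.39 other peaks within 10 kb, their nearest peak had a median of 10.85 CPM, and 59.5% had another compact strongly open peak within 10 kb. Only 5.56% of them were the highest within 10 kb. The 973 peaks of over 374 bp had a mean of 5.71 neighbours, a nearest peak of 6.23 CPM and a compact strongly open peak within 10 kb in 23.4%, and 45.4% were the highest. The median gap was 471.5 bp at 210 to 299 bp, 396.5 bp at 300 to 349 bp, 411.5 bp at 350 to 374 bp and 488 bp above, so it had no order with width. Width and mean CPM were weakly related among the 2439 peaks (Spearman correlation 0.229 across peaks, which share the libraries).

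Adjacent compact strongly open peaks formed short runs. In the peak list, 2111 of them had no other as direct neighbour, 288 came as 144 pairs, 36 as 12 runs of 3, and 4 formed a single run of 4. This run lay on chromosome 22. Its peaks at 11109641 to 11109926, 11110484 to 11110847, 11111782 to 11112167 and 11112814 to 11113159 had 16.0, 21.8, 24.5 and 30.7 CPM in replicate 1. In replicate 2 they had 13.0, 23.0, 21.4 and 22.9 CPM. The gap to the nearest peak was 557 or 646 bp for each of them, and the highest other peak within 10 kb of each had 42.4 CPM.

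Broad peaks of at least 1000 bp, of which there were 1236 on these chromosomes, mark the largest open regions. The distance from a compact strongly open peak to the nearest broad peak had a median of 269.6 kb (quartiles 80.0 and 709.6 kb), and that of other compact peaks 388.4 kb (142.0 and 858.1 kb). It was 287.0 kb in compact peaks with at least 5 CPM below the minimum and 293.2 kb in wide strongly open peaks, nearer to the compact strongly open peaks than to the other compact peaks. Compact strongly open peaks had the lower median on 24 of 25 chromosomes against other compact peaks, but on 16 of 25 against compact peaks of at least 5 CPM and on 20 of 25 against wide strongly open peaks. On chromosome 12 the direction was opposite, with 958.4 kb in compact strongly open peaks and 648.0 kb in other compact peaks. Without that chromosome the medians were 260.6 and 382.1 kb.

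Few of the 2439 peaks lay right beside a broad peak. A broad peak was within 1 kb of 30 compact strongly open peaks (1.23%) and 410 other compact peaks (0.228%), and within 10 kb of 124 (5.08%) and 3703 (2.06%). For wide strongly open peaks the share within 10 kb was 3.29%. Compact peaks of at least 5 CPM below the minimum came closer, with 0.65% within 1 kb and 4.29% within 10 kb. Most compact strongly open peaks, 1754 (71.9%), had no broad peak within 100 kb, as had 146130 other compact peaks (81.1%). This share was 74.0% in compact peaks of at least 5 CPM below the minimum and 73.9% in wide strongly open peaks. The 3 farthest were all on chromosome 4, which had 26 broad peaks, the lowest number of the 25 chromosomes. The peak at 27109809 to 27110198, with 23.2 and 23.7 CPM, was 9003 kb away, and that at 27110997 to 27111379, with 12.3 and 11.1 CPM, 9002 kb. The peak at 25921018 to 25921381, with 12.8 and 11.1 CPM, was 8479 kb away.

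**Figure D3:**
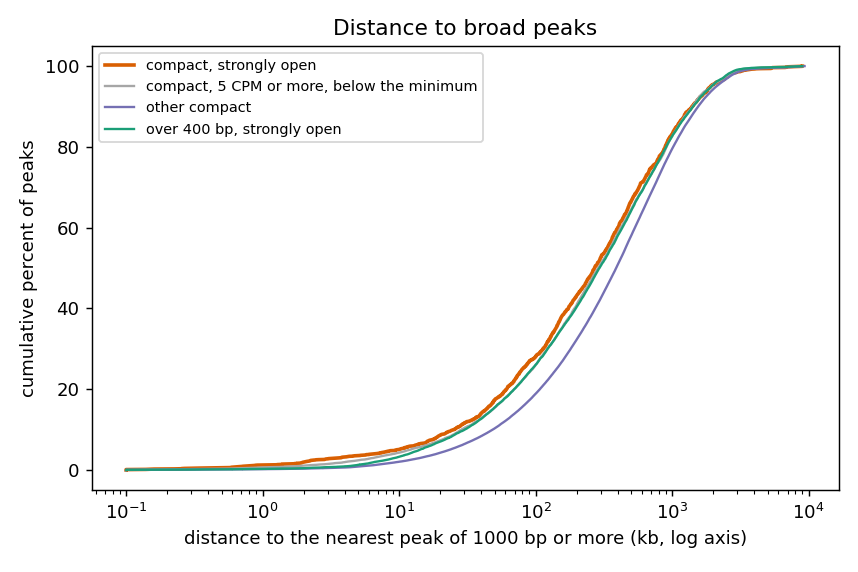
Cumulative percent of peaks (y axis) by distance to the nearest peak of 1000 bp or more in kb (log x axis, distances under 0.1 kb drawn at 0.1 kb). The curve of compact strongly open peaks (orange, median 269.6 kb) lies left of that of other compact peaks (violet, 388.4 kb) and near those of compact peaks of 5 CPM or more below the minimum (grey, 287.0 kb) and wide strongly open peaks (green, 293.2 kb).

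**Figure D4:**
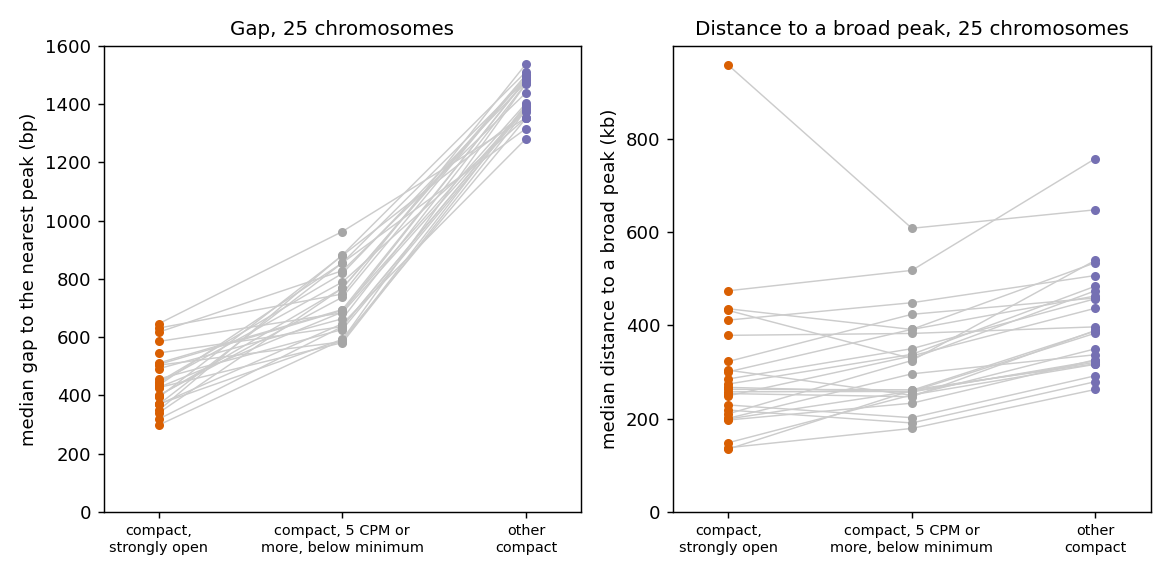
Median gap to the nearest peak (left, bp) and median distance to a broad peak (right, kb) on each of 25 chromosomes, with grey lines joining the values of a chromosome. Gaps of compact strongly open peaks (298 to 646 bp) and of other compact peaks (1281 to 1538 bp) do not overlap; distances do, and chromosome 12 stands out at 958.4 kb.

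Every numbered chromosome held compact strongly open peaks, from 73 on chromosomes 18 and 25 to 148 on chromosome 3. They were 0.981% of the compact peaks on chromosome 18 and 1.78% on chromosome 3. Among all strongly open peaks their share ranged from 8.60% on chromosome 18 to 14.7% on chromosome 4. Per Mb, counted between the first and the last peak, they numbered 1.11 on chromosome 4 and 2.37 on chromosome 3, with a median of 1.91. Within 1 Mb of the first or last peak of a chromosome lay 205 of them (8.41%) and 9107 other compact peaks (5.05%). The same held for 747 compact peaks of at least 5 CPM below the minimum (6.84%) and 1250 wide strongly open peaks (6.37%). The excess of compact strongly open over other compact peaks was uneven. It was found on 18 of 25 chromosomes, and the number of compact strongly open peaks so placed ranged from 1 on chromosome 9 to 24 on chromosome 6. Against each of the 2 remaining groups, the share was higher on 16 of 25. Within 5 Mb the shares were closer, at 21.5% of compact strongly open and 20.5% of other compact peaks. The middle of 5 equal parts of the chromosome held 24.6% and 21.3%. It held 25.4% of compact peaks of at least 5 CPM below the minimum and 23.1% of wide strongly open peaks. A general preference for chromosome ends was thus not shown.

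Agreement of the libraries was described by the ratio of CPM in replicate 1 to that in replicate 2. The rule requires 10 CPM in both, which removes peaks with uneven values close to the minimum, so these figures carry no test. The median absolute log2 ratio was 0.16 in compact strongly open peaks, 0.45 in other compact peaks and 0.17 in wide strongly open peaks. The SD of the log2 ratio was 0.23 in compact strongly open, 0.86 in other compact and 0.24 in wide strongly open peaks. The common biological coefficient of variation of edgeR is the relative spread beyond counting error. It was estimated with TMM factors, whereas the ratios in this paragraph use the total count. It was 0.126 in compact strongly open peaks, 0.242 in other compact peaks, 0.136 in compact peaks of at least 5 CPM below the minimum and 0.135 in wide strongly open peaks. At a mean of 10 to under 15 CPM, the median absolute log2 ratio was 0.15 in compact and 0.17 in wide strongly open peaks. At 15 to under 20 CPM it was 0.18 and 0.19. At equal level, compact and wide strongly open peaks thus had similar ratios between the libraries.

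Membership itself depended on the library. Taken alone, replicate 1 had 3456 compact peaks at 10 CPM or more and replicate 2 had 2949, and the 2439 peaks in common were 70.6% of the first list and 82.7% of the second. Of the 1017 that passed only in replicate 1, 741 still had at least 8 CPM in replicate 2. Of the 510 that passed only in replicate 2, 387 had at least 8 CPM in replicate 1. Most of the disagreement therefore concerned peaks close to the minimum.

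**Figure D5:**
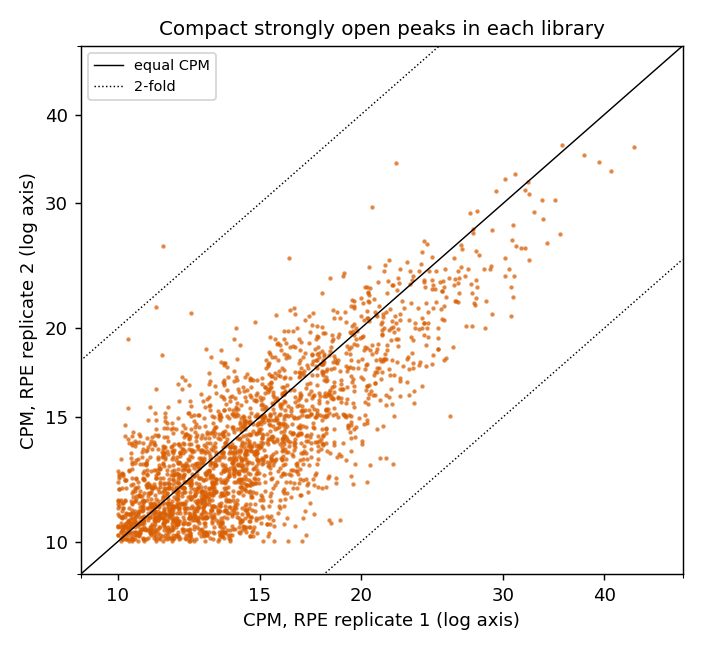
CPM of the 2439 compact strongly open peaks in RPE replicate 1 (x axis) and RPE replicate 2 (y axis), both on log axes, with 1 point a peak. The points follow the line of equal CPM between 10 and 44 CPM, and 1 peak lies outside the dotted 2-fold lines, at 11.4 CPM in replicate 1 and 26.1 CPM in replicate 2.

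Which peaks differed by more than counting error was tested for every listed peak with an exact two-sided binomial test and Benjamini-Hochberg adjustment over the 238310 peaks with any count. At an adjusted p under 0.05, 444 of 2439 compact strongly open peaks (18.2%) differed, beside 13.3% of all peaks, and 27.8% of wide strongly open peaks. The test gains power with the count, and at 10 to under 15 CPM it called 13.7% of compact and 17.8% of wide strongly open peaks. It compares these libraries, not conditions. Of the 444, 360 were higher in replicate 1, beside 5.09% of all peaks called in that direction, and 84 were higher in replicate 2, beside 8.21%. The share higher in replicate 1 among those called was thus 81.1% in compact strongly open peaks and 38.3% over the whole list. This direction was not particular to compact strongly open peaks. Of 5465 wide strongly open peaks called, 4261 were higher in replicate 1. Of 1455 compact peaks of at least 5 CPM below the minimum that were called, only 480 were higher in replicate 2. Among all other compact peaks the direction was opposite, with 14539 of 19187 called peaks higher in replicate 2. With TMM scaling, 2359 peaks met the rule and 615 of them were called (26.1%, beside 14.1% of all peaks). Of these called compact strongly open peaks, 93.5% were higher in replicate 1, beside 56.4% of those called over the whole list. The median log2 ratio over compact strongly open peaks was then 0.16 rather than 0.08. If each count stood for 1 end of a pair and counts were halved, the test called 47 of them (1.93%, beside 0.949% of all peaks).

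The peaks with the most uneven values were few. A log2 ratio beyond 0.5 in either direction was found for 88 of 2439 compact strongly open peaks, and beyond 1 for a single one. Among wide strongly open peaks, 913 of 19623 lay beyond 0.5 and 3 beyond 1. Among compact peaks of at least 5 CPM below the minimum, the numbers were 955 of 10915 and 8. The minimum of 10 CPM in both libraries itself limits uneven values. The single compact strongly open peak beyond 1, at chromosome 7, 52742374 to 52742694, had 273 counts (11.4 CPM) in replicate 1 and 513 counts (26.1 CPM) in replicate 2. Its log2 ratio was -1.20, with an adjusted p of 7.46e-26 by the exact binomial test. The next lowest ratios were -0.94 at chromosome 7, 64185828 to 64186075, with 11.2 and 21.4 CPM, and -0.91 at chromosome 1, 39929715 to 39930095, with 10.3 and 19.3 CPM. The highest ratios were smaller. They were 0.81 at chromosome 1, 44888895 to 44889252, with 18.8 and 10.7 CPM, 0.79 at chromosome 13, 5443377 to 5443667, with 18.4 and 10.6 CPM, and 0.77 at chromosome 22, 718627 to 718986, with 25.8 and 15.1 CPM. All 6 passed the test, but they were picked for their extreme ratios, so this is a description. The rule itself put all 6 above the minimum in both libraries.

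To place some of these peaks near genes, the study's own assignments of peaks to genes were used as names. These assign a peak to a gene by distance and were made for regions that the study selected as more open in the RPE near genes more expressed there, so they say nothing independent about the direction of either. The copy read here is shortened, and a peak without a name may still have one. In it, 33 compact strongly open peaks carried a gene. A single one belonged to the pigment cell, keratin and desmosome genes listed for naming. The share of all compact peaks that carry a gene in this copy is not given here, so neither number is read as a result about these peaks. This single peak was linked with pmela, which encodes the fibril protein of melanosomes, and overlapped the pmela locus at chromosome 11, 3186184 to 3186563. It had 19.4 CPM in replicate 1 and 18.4 CPM in replicate 2 (18.9 CPM ± 0.714, SD, n = 2) and was higher than the 5 other peaks within 10 kb, of which the highest had 7.56 CPM.

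The other genes named below were chosen after the values were seen, and they are only some of those linked. Left out were, among others, tnni2a.4, cyp2y3, hnmt, qdpra, samm50l, ch25h and apaf1. Several of the genes chosen encode transcription factors. The peak linked with tead1b, whose product is a Tead factor that acts with Yap and Taz, lay at chromosome 7, 65737036 to 65737374, with 18.9 and 15.7 CPM. That linked with otx1a, of the Otx homeobox family, lay at chromosome 1, 50269432 to 50269824, with 16.7 and 15.5 CPM. A peak of 308 bp overlapping the locus of pax3a, a regulator of neural crest and its pigment cells, lay at chromosome 2, 47578654 to 47578961, with 16.4 and 15.3 CPM. The peak linked with lmx1ba, a LIM homeobox gene, lay at chromosome 5, 4603231 to 4603611, with 13.0 and 15.6 CPM. That linked with jun, a subunit of AP-1, lay at chromosome 20, 15445065 to 15445427, with 14.2 and 10.6 CPM. None of these 5 except the jun peak (exact binomial test, adjusted p = 0.0148) differed between the libraries by the test.

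Other linked genes act in the cytoskeleton, adhesion or signalling. The peak linked with myh9b, a non-muscle myosin heavy chain gene, was the highest of the 33 with a gene link. It lay at chromosome 3, 5320489 to 5320870, with 33.5 and 30.3 CPM, and was 1.79 kb from a broad peak. The peak linked with dusp4, a phosphatase of MAP kinases, lay at chromosome 21, 20163926 to 20164282, with 24.5 and 17.8 CPM, and was the highest within 10 kb. The peak linked with ctgfa, a matricellular protein gene known as a Yap and Tead target, lay at chromosome 20, 25437899 to 25438243, with 12.7 and 11.96 CPM. The peak in the locus of cxcr4a, a chemokine receptor gene, lay at chromosome 6, 12687023 to 12687352, with 11.7 and 11.2 CPM. Apart from the dusp4 peak (exact binomial test, adjusted p = 0.000155), none of these 4 passed the test between the libraries.

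A complete list of 73 peaks that the study linked with keratin and desmosome genes, which build intermediate filaments and anchor them at cell junctions, was chosen by it on these samples. Of the 73 peaks, 48 were compact and 7 were wide and strongly open. None of the 48 met the rule, which was met by 1.34% of all compact peaks on these chromosomes. That share depends on width, with 2.57% at 300 to 349 bp and 8.98% at 350 to 400 bp. The 73 peaks had a median width of 357 bp. Widths were not matched, so the count is not read as a result about the 48. The median of the 73 was 5.20 CPM, against 1.89 CPM for all peaks on chromosomes 1 to 25. The highest compact one, linked with jupa, which encodes the junction protein plakoglobin, lay at chromosome 11, 11758182 to 11758552. It missed the rule narrowly, with 9.84 CPM in replicate 1 and 12.9 CPM in replicate 2. The next, linked with krt8 and krt18, which encode keratins of simple epithelia, lay at chromosome 23, 10384284 to 10384632, with 10.96 and 9.06 CPM. These values sat on both sides of the minimum within the spread of the libraries.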

How the data were processed

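ATAC-seq libraries of sorted RPE cells at 23 hpf formed 1 group of 2 replicates, as the labels give them. The authors deposited unscaled whole-number counts for each peak, over 1 peak list shared by the libraries. Per the paper's methods, they mapped paired reads to danRer10 with Bowtie2, removed duplicates with Samtools rmdup, moved read starts to the transposase position and kept pairs with short inserts. The submitters' processing notes also name MACS2. How peaks were called, on which libraries, and what was counted (reads, pairs or cut sites) is not given in the sources used here. Removing duplicates by position can limit the counts of a narrow peak, and whether it did so here was not tested. The peak list is described for NR and RPE together, so widths need not reflect the RPE alone.

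CPM was computed with the summed peak counts of a library. Distances were taken between edges, and neighbours within 10 kb by midpoints. The members, lists and tests were chosen with earlier results of these data known. Peaks named in the text were the 8 highest in mean CPM, the 5 highest per 100 bp, the 3 largest and 3 smallest ratios, the 3 farthest from a broad peak, 3 just inside and 3 just outside the rule, the longest run, and the highest member linked with each gene of a list of 21 pigment cell, keratin and desmosome genes; other gene links are said to be chosen later. Gene loci were 3177 danRer10 loci of the study's expression tables. No genome or annotation of that build was used, so no sequence, exon or promoter is given. Exact binomial tests were adjusted over all peaks with a threshold of 0.05. Shares have exact (Clopper-Pearson) 95% intervals. TMM factors and dispersions came from edgeR 4.0.16 and size factors from DESeq2 1.42.0, in R 4.3.3. Other steps ran in Python 3.11.15 (scipy 1.17.1, statsmodels 0.14.6, pandas 2.3.3, numpy 2.4.6, matplotlib 3.10.9) with seed 11. Alternatives changed the scaling, the width and CPM limits, the broad peaks, the window, the comparison peaks, the neighbours counted and the libraries. The test, the distances and the dispersion were tested on simulated data. The methods call the replicates biological, and the labels do not say whether they came from separate clutches, so tests measure only the spread between these libraries.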

Additional observations from a re-analysis of the deposited data

Results flagged for a closer look

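The rule was limited to chromosomes 1 to 25, so signal elsewhere was not part of the comparisons. On unplaced scaffolds, 26 of 3609 peaks of at most 400 bp had 10 CPM or more in each library (0.72%, against 1.34% on the numbered chromosomes), with a median of 13.4 CPM and a maximum of 29.7 CPM, and they lay on 23 scaffolds. On the mitochondrial sequence, 1 such peak of 161 bp had 188.7 CPM in replicate 1 and 320.2 CPM in replicate 2. Both are above the limit that a count of 0 allows.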

How the results depend on the processing

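The differences in distance, gap and neighbours kept their direction under each alternative run for them. The direction of the calls between the libraries did not: over the whole list, 38.3% of the called peaks were higher in replicate 1 with the total count, 56.4% with TMM and 56.9% with DESeq2 size factors. No paired analysis was possible because both libraries belong to 1 group. The comparison within 300 to 400 bp and that without chromosome 12 were chosen after seeing the data. Causes of the changes below were not tested, except that a stricter or looser rule admits fewer or more peaks by construction. For distance, gap and neighbours, a move is counted beyond the SD between the results with the rule in either library alone. For the share of counts it is counted beyond the SD between the libraries. For numbers of peaks and percentages called it is counted beyond 1.5 times. The median absolute log2 ratio is judged by a 95% interval of the median over peaks, which are not replicates.

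The number of compact strongly open peaks, 2439, was 133 at a width limit of 300 bp, 7217 at 500 bp, 4571 at 8 CPM and 608 at 15 CPM. Their share of counts, 3.54%, was 0.173%, 11.8%, 5.59% and 1.201% under these settings, 3.39% with DESeq2 size factors and 3.73% with totals of chromosomes 1 to 25. With the rule in 1 library alone, the number was 2949 to 3456 and the share 4.04% to 4.55%.

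The difference in median distance to a broad peak, compact strongly open minus other compact peaks, was -118.8 kb. It was -172.2 kb at 300 bp, -97.6 kb at 500 bp, -154.9 kb at 15 CPM, -42.7 kb for broad peaks of at least 800 bp, -171.7 kb for at least 1200 bp, and -17.4 kb against compact peaks near in level. The rule in 1 library gave -131.3 to -104.1 kb. The difference in median gap, -989 bp, was -954 bp at 300 bp and also at 8 CPM, -871 bp at 500 bp, -1012 bp at 15 CPM, -880.5 bp between midpoints, -286 bp near in level, -1469 bp with neighbours of at least 10 counts in both libraries, and -1043 bp with both sets 300 to 400 bp wide. The rule in 1 library gave -977 to -958 bp. The difference in mean neighbours within 10 kb, 1.99, was 3.28 at 300 bp, 1.54 at 500 bp, 2.37 at 15 CPM, 0.585 near in level, 5.39 over 50 kb and 2.44 with neighbours of at least 10 counts. The rule in 1 library gave 1.77 to 2.12.

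The share with another compact strongly open peak within 10 kb, 28.0%, was 13.5% at 300 bp, 39.9% at 500 bp, 35.7% at 8 CPM, 16.1% at 15 CPM, 44.9% within 50 kb and 28.0% to 36.5% with the rule in 1 library. The median absolute log2 ratio, 0.16, was 0.19 with TMM, 0.19 with DESeq2 size factors, 0.17 at 500 bp, 0.15 at 15 CPM, 0.15 with a pseudocount of 1 CPM and 0.14 without the trend with count. Of compact strongly open peaks, 18.2% differed between the libraries (beside 13.3% of all peaks), and 1.93% with counts halved (beside 0.949%). Without the trend with count, the test called 14.1% of compact strongly open peaks, beside 10.3% of all peaks. Of those called, 50.9% were higher in replicate 1, against 81.1% with the trend and 93.5% with TMM. The trend was fitted to the ratios of these same peaks. A nearly even split is thus largely set by the fit and is no result about a cause. Neither measure exists with 1 library. The number called depends on what 1 count stands for, and the peak list, described for NR and RPE together, limits what a width means.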
